A study of Mus musculus with 5 samples.

Results

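The intervals described here are the 3′ untranslated region (3′ UTR) intervals of cultured cardiac fibroblasts (CF) whose transcripts took up the least S4U over a 12 h labeling period. An interval was chosen when each of the 3 labeled libraries covered at least 300 T positions in it and its pooled T>C conversion rate, the conversions of the 3 labeled libraries divided by their covered T positions, was below 1.5%. Of 40428 distinct intervals with 20365 gene names, 8874 intervals with 5563 gene names had this coverage, and 209 intervals with 152 gene names were below the threshold (2.36% of the covered intervals, 2.73% of their gene names). Many of the 209 intervals are alternative ends of the same 3′ UTR, and merging overlapping intervals on 1 strand left 147 loci. The CF came from hearts of healthy adult male C57Bl/6J wildtype mice. They were isolated by perfusion with collagenase and grown to confluency. The isolation of CF described by the methods, there for operated hearts, included a magnetic removal of CD31+ endothelial and CD45+ immune cells. Both groups carried the same genotype and were cultured for 12 h, the 3 labeled libraries with 0.1 mM S4U and the 2 unlabeled libraries without it, and RNA of both groups was alkylated. By the methods of the study, separate CF preparations served as replicates of this assay and unlabeled cells were kept alongside, but neither the methods nor the labels tie a preparation to a replicate number.

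S4U is a uridine analog that cells build into new RNA. After alkylation it is read as C in place of T, so that the T>C conversion rate of a transcript rises with the share of its copies made during labeling. Transcripts that are replaced slowly keep more of their older, unlabeled copies. Fibroblasts are known as the main source of the extracellular matrix of the heart, and the proteins of this matrix, of the lysosome and of the secretory pathway are all made at the endoplasmic reticulum (ER). The intervals were chosen by their labeled T>C rates, so these rates and their contrast with the unlabeled libraries are described and were not tested.

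The libraries read the 3′ ends of transcripts, and the ends of the deposited intervals need not be those of the measured RNA. In the annotation of GRCm39, 201 of the 209 intervals lay to at least 95% in a last exon of their gene, and 169 ended within 10 bases of an annotated transcript end. The poly(A) signal AATAAA was found in the last 60 bases of 132 of the 209 intervals (63.2%), against 68.6% of all 8874 covered intervals. The sites of 5 members that are described below, a matrix proteoglycan, a membrane protein, 2 complement genes and an apolipoprotein, are shown with the signal in capitals. They were read 5′ to 3′ on the transcript strand of GRCm39.
Dcn, chr10:97353983-97354012, plus strand: catattgaaaaaAATAAAattttaaaaatg
Itm2b, chr14:73599679-73599708, minus strand: gctttttaaaaaAATAAAataagccattaa
Serping1, chr2:84595719-84595748, minus strand: tcaaactctacaAATAAAacttgcagacat
C3, chr17:57510978-57511007, minus strand: gcccagccctctAATAAAgcttcagttgta
Apoe, chr7:19430198-19430227, minus strand: tggcccttgcttAATAAAgattctccgagc
The signal began 31 bases before the end of the *Dcn* and *Itm2b* intervals, 33 bases before that of *Serping1*, 23 before that of *C3* and 47 before that of *Apoe*.

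With a gene counted on its interval of highest CPM, the libraries held between 506045 and 1842706 reads, and labeled replicate 3 was the shallowest. Levels are given below as CPM of counted reads, which scales each library to these reads. Labeled replicate 1 differed from labeled replicates 2 and 3 by a chi-square per degree of freedom of 16.6 and 10.96 in read counts, while replicates 2 and 3 differed by 2.04. The unlabeled libraries differed from each other by 16.1. For the same relative difference this measure grows with depth. Pairs with labeled replicate 3, the shallowest, are therefore not directly comparable with the others. The 10 fibroblast markers together held 39221, 39573 and 42840.1 CPM of counted reads in the labeled libraries and 31911 and 35552 in the unlabeled ones. All 14 macrophage markers together held 157 to 243, the 9 endothelial markers 251 to 426, the 7 mural cell markers 322 to 636 and the 14 cardiomyocyte markers 3.81 to 17.1 over the 5 libraries. The 8 mesothelial markers held 4.88 to 7.90, the 5 Schwann cell markers 15.9 to 44.5 and the 5 erythroid markers 0 to 4.88, and the 5 of 6 lymphocyte markers in the tables had no read. In such bulk libraries, fewer cells of a type and less RNA per cell cannot be told apart.

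The pooled rate of the 209 intervals ranged from 0.165% to 1.497%, with a median of 1.04%, which was 26.9% of the median of 3.88% over all covered intervals. Taken over all 209 intervals, the rate was 1.09%, 1.16% and 1.02% in labeled replicates 1, 2 and 3. The rate was below 1.5% in every labeled library for 154 of the intervals, in 2 libraries for 44 and in 1 library for 11. The counting interval of the pooled rate (exact Clopper-Pearson, 95%, which covers counting error only) lay below 1.5% for 157 of the 209, and it reached below 1.5% for 88 intervals just above the threshold. In the unlabeled libraries, which the rule did not use, the 209 intervals had rates of 0.0870% and 0.0560%, against 0.110% and 0.0653% over all covered intervals.

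**Figure D1:**
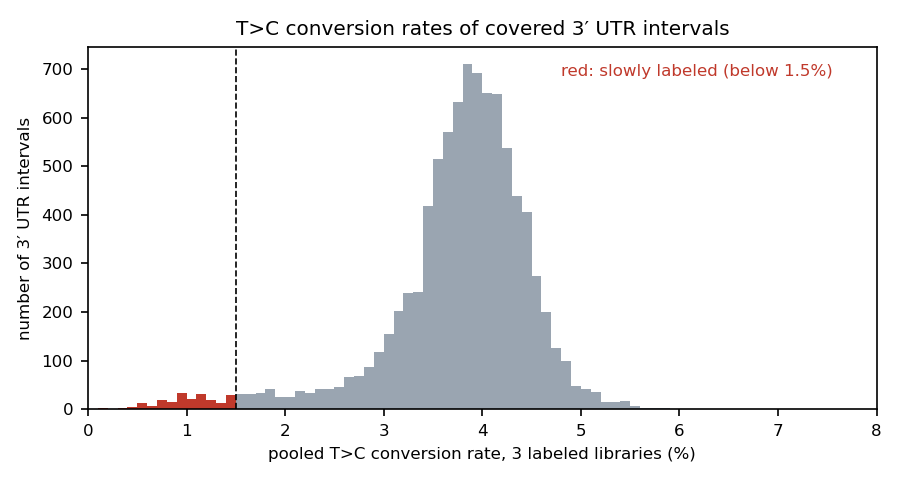
Number of covered 3′ UTR intervals (y axis) by pooled T>C conversion rate in percent in steps of 0.1 (x axis), with the 209 slowly labeled intervals in red and the threshold of 1.5% dashed. The slowly labeled intervals form the low tail of a distribution with a median of 3.88%.

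Choosing intervals with 2 labeled libraries and reading the remaining one gave rates that the choice had not used. Of the 203 intervals chosen without labeled replicate 1, 173 (85.2%) were also below 1.5% in it, with a median of 1.00%. Of 246 chosen without replicate 2, 170 (69.1%) were below 1.5% in that library, at a median of 1.17%. Of 205 chosen without replicate 3, 177 (86.3%) were below it there, at a median of 0.937%. Over all covered intervals, 2.92%, 2.28% and 3.29% were below 1.5% in the same libraries. All but 2 of the 246 intervals, and every one of the other choices, were below the median of all covered intervals in the library left out. At the threshold, the members just inside included *Lgmn*, *Igfbp4* and *Col16a1* with pooled rates of 1.4928%, 1.4924% and 1.4924%. The 4 intervals just outside were those of *Cox4i1* (1.5012%) and *Rpsa* (1.5023%) and 2 of *Gabra3* (1.5031% and 1.5044%).

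To see what the intervals hold, the 152 gene names were sorted into 8 groups after the members were known, the last for names in no class. The sorting placed 30 names with matrix and matricellular proteins, 8 with extracellular proteases, their inhibitors and matrix processing, 30 with the lysosome and endosome, and 14 with the ER and early secretory pathway. It placed 18 with complement, MHC class I and other immune proteins, 9 with carriers and antioxidant enzymes, 8 with the ribosome and translation, and 35 in no class. The 35 include 9 *Ugt1a* names, glucuronosyltransferases whose transcripts share 1 common 3′ end, so that their reads cannot be told apart. Class medians of the pooled rate ran from 0.834% for carriers and antioxidant enzymes to 1.33% for the ribosome and translation.

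The 2 member genes with the highest levels, *Bgn* and *Dcn*, encode matrix proteoglycans, while the median deposited CPM of the matrix class, 21.8, was below the 48.2 of the ribosome and translation. Of 58 covered genes of a list of matrix glycoproteins and proteoglycans, 20 (34.5%) had a slowly labeled interval, and the median rate of the 58 was 1.73%. *Bgn* (ENSMUSG00000031375.20; chrX:72538403-72539542, plus strand) encodes biglycan, a small leucine-rich proteoglycan that binds collagen. Its rate was 0.978%, 1.01% and 0.937% in labeled replicates 1, 2 and 3 and 0.0639% and 0.0537% in the unlabeled libraries, from 246496 covered T positions in the labeled libraries. Its level was 4553, 5712 and 5816 CPM of counted reads with S4U and 4229 and 4326 without it. *Bgn* was the member gene with the highest level, and its labeled and unlabeled rates did not overlap. *Dcn* (ENSMUSG00000019929.18; chr10:97353518-97354025, plus strand) encodes decorin, which regulates collagen fibril assembly. The rate of *Dcn* was 1.12%, 1.14% and 1.11% in the labeled and 0.0669% and 0.0819% in the unlabeled libraries. At 4900.2, 4963 and 4885 CPM of counted reads with S4U and 4798 and 5039 without it, its level varied little between libraries of either group. *Nid1* (ENSMUSG00000005397.10; chr13:13684653-13686860, plus strand), for the basement membrane linker nidogen-1, had rates of 1.28%, 1.37% and 1.37% with S4U and 0.0807% and 0.0382% without it. *Igfbp4* (ENSMUSG00000017493.14; chr11:98942406-98943481, plus strand), for a secreted binding protein of insulin-like growth factors, had 1.21%, 1.66% and 1.44% with S4U and 0.0317% and 0.0411% without it. The labeled libraries of *Igfbp4* fell on both sides of the threshold, and its level of 1034, 2536 and 2929 CPM of counted reads with S4U and 1161 and 3182 without it was lowest in the replicate 1 library of each group.

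Of 17 covered collagen chain genes, 5 (29.4%) had a slowly labeled interval, and all 17 were below the median rate of all covered intervals. Rates of *Col14a1* (ENSMUSG00000022371.19; chr15:55383409-55384199, plus strand), a fibril-associated collagen, were 0.808%, 0.765% and 0.684% in the labeled libraries and 0.0178% and 0% in the unlabeled ones. For the chains of the microfibrillar collagen VI, *Col6a1* (ENSMUSG00000001119.9; chr10:76544626-76545392, minus strand) had 0.943%, 0.897% and 0.937%, while *Col6a2* (ENSMUSG00000020241.15; chr10:76431590-76432046, minus strand) had 1.21%, 1.18% and 0.479% in the labeled libraries. *Col6a2* was therefore spread more widely than *Col6a1*, with labeled replicate 3 lowest. The basement membrane chain *Col4a5* had a rate of 1.33% ± 0.0339 (SD, n = 3) and *Col16a1* 1.43% ± 0.377 (SD, n = 3). *Col1a1*, *Col1a2* and *Col3a1*, the chains of the fibrillar collagens I and III, were covered and above the threshold. Their pooled rates were 2.60%, 2.01% and 1.53%. *Col3a1* was thus close to the threshold, with a mean of 1.51% ± 0.143 (SD, n = 3).

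Among 33 covered matrix processing enzymes and inhibitors, 7 (21.2%) were members. *Cst3* (ENSMUSG00000027447.8; chr2:148713642-148713879, minus strand), for the secreted cysteine protease inhibitor cystatin C, had rates of 0.507%, 0.617% and 0.486% with S4U and 0% and 0.0202% without it. Its level was 426, 2003 and 2136 CPM of counted reads with S4U and 458 and 1295 without it, lowest in the replicate 1 library of each group. *Adamts2*, which cleaves the amino-terminal propeptide of procollagen, had a rate of 1.46% ± 0.270 (SD, n = 3). *Serpinf1*, for pigment epithelium-derived factor, had 1.15% ± 0.0620 (SD, n = 3) and is taken up again with the background below.

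**Figure D2:**
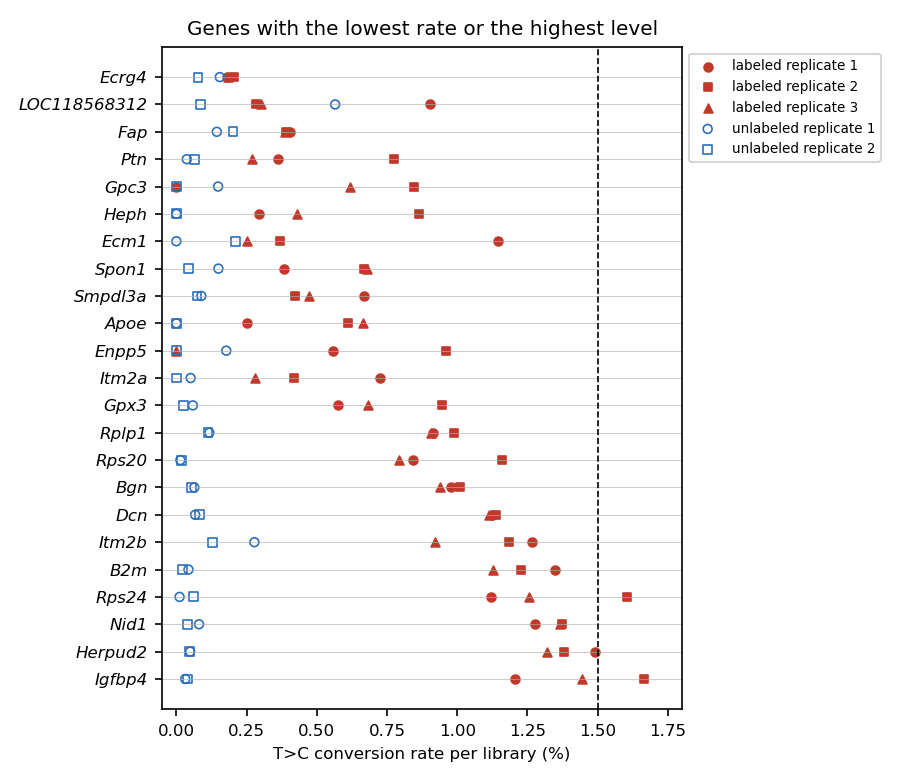
T>C conversion rate in percent (x axis) of the 12 genes with the lowest pooled rate and the 12 with the highest CPM (y axis, 23 genes because 1 belongs to both), with labeled libraries as filled and unlabeled libraries as open symbols and the threshold of 1.5% dashed. Labeled and unlabeled libraries are separate for *Bgn*, *Dcn* and *Nid1* and overlap for *LOC118568312*, *Gpc3* and *Enpp5*.

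Lysosomal genes were the list with the most members, 22 of 52 covered (42.3%), and 50 of the 52 were below the median rate of all covered intervals. The median over the 52 was 1.74%. The cathepsins are proteases that degrade proteins in the lysosome. *Ctsb* (ENSMUSG00000021939.10; chr14:63379779-63383372, plus strand) had rates of 1.00%, 1.17% and 1.37% in the labeled libraries and 0.0240% and 0.00807% in the unlabeled ones. *Ctsd* (ENSMUSG00000007891.18; chr7:141929647-141930307, minus strand) had 1.07%, 1.31% and 1.14% and 0.0518% and 0.0473%. *Ctsl* (ENSMUSG00000021477.11; chr13:64509704-64511911, minus strand) had 1.37%, 1.55% and 1.31% and 0.275% and 0.152%. All 3 cathepsins lay between 1.00% and 1.55% in every labeled library, and *Ctsl* had the highest background of the 3. *Lamp1* (ENSMUSG00000031447.9; chr8:13224559-13225338, plus strand), a heavily glycosylated protein of the lysosomal membrane, had 1.07%, 1.21% and 1.23% with S4U and 0.0253% and 0.0512% without it. Its level of 886, 857 and 958 CPM of counted reads with S4U and 899 and 822 without it overlapped between the groups. The lowest rate among the genes sorted with the lysosome and endosome was that of *Smpdl3a*, a phosphodiesterase related to acid sphingomyelinase, at 0.667%, 0.422% and 0.473% with S4U and 0.0888% and 0.0732% without it.

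Complement and MHC class I genes had the largest shares of members, in short lists. Of 8 covered complement components and regulators, 5 had a slowly labeled interval (62.5%), among them *C3*, *C1ra*, *C1s1* and *Serping1*. The central component *C3* (ENSMUSG00000024164.17; chr17:57510973-57511012, minus strand) had rates of 0.497%, 0.578% and 0.927% with S4U and 0.0146% and 0.0254% without it. Its interval was the shortest of the set, at 40 bases. *C1ra* (ENSMUSG00000055172.12; chr6:124499940-124500399, plus strand), a protease of the first complement component, had 0.800%, 0.552% and 1.08% and 0.0895% and 0.0962%. *Serping1* (ENSMUSG00000023224.14; chr2:84595704-84595917, minus strand), for the inhibitor of that protease, had 1.02%, 0.877% and 0.908% and 0.154% and 0.0510%. The labeled libraries of *C3*, *C1ra* and *Serping1* did not overlap with the unlabeled ones. Of 7 covered MHC class I and peptide loading genes, 4 (57.1%) had a slowly labeled interval. *B2m* (ENSMUSG00000060802.10; chr2:121983132-121983563, plus strand), the invariant light chain, had 1.35%, 1.23% and 1.13% with S4U and 0.0430% and 0.0214% without it. The heavy chains *H2-D1* and *H2-K1* had 0.908% ± 0.0433 and 1.39% ± 0.179 (SD, n = 3 for both), with the limit that such near-identical genes can share reads. *Tapbp*, which loads peptides onto the heavy chains, had 0.753% ± 0.203 (SD, n = 3).

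The macrophage-linked genes *Pf4*, *Ccl6*, *Ctss* and *Gpnmb*, singled out after their values were seen, were also members. Their pooled rates were 1.07%, 1.35%, 1.14% and 1.25%, and their mean levels were 32.5, 40.6, 38.6 and 151 CPM of counted reads in the labeled libraries. All 14 listed macrophage markers had reads, and none of the 14 reached the coverage of 300 T positions in every labeled library. At this lower coverage 10 of the 14 had pooled rates above 1.5%, and *Adgre1*, *Cx3cr1*, *Laptm5* and *Tyrobp* were below it, with a range of 0.844% to 5.65% over the 14. The gene of CD45, *Ptprc*, is among the 14. The part of other cells in these rates was not tested.

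Among 9 covered iron and lipid carriers, 3 (33.3%) were members. *Apoe* (ENSMUSG00000002985.18; chr7:19430169-19430304, minus strand), the apolipoprotein E gene, had rates of 0.253%, 0.612% and 0.666% with S4U and no conversion in 11135 covered T positions without it, which allows a rate of up to 0.0269%. *Cp*, for the copper-carrying ferroxidase ceruloplasmin, had 1.05% ± 0.177 and *Trf*, for transferrin, 0.781% ± 0.292 (SD, n = 3 for both). Of 29 covered antioxidant and glutathione enzymes, 5 (17.2%) were members, and those with the highest levels are secreted. *Gpx3* (ENSMUSG00000018339.14; chr11:54800485-54801213, plus strand), the extracellular glutathione peroxidase, had 0.577%, 0.944% and 0.682% with S4U and 0.0586% and 0.0247% without it, and its level was 549, 2269.5 and 2523 and 606 and 2364 CPM of counted reads. *Sod3*, the extracellular superoxide dismutase, had a rate of 1.06% ± 0.174 and *Selenop*, a secreted selenium carrier, 0.930% ± 0.171 (SD, n = 3 for both). The cytosolic glutathione transferase *Gstm1* was the least settled of them, at 1.78%, 0.953% and 0.437% with S4U.

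Of 37 covered genes for ER folding and translocation, 5 (13.5%) were members, and the median of the 37 was 3.61%. *Fkbp9*, a prolyl isomerase of the ER, had a rate of 1.06% ± 0.0832 (SD, n = 3). *Rpn2*, a subunit of the oligosaccharyltransferase, had 1.05% ± 0.417, *Ssr4*, a subunit of the translocon-associated complex, 1.04% ± 0.318, and *Ppib*, cyclophilin B, 1.15% ± 0.157 (SD, n = 3 for each). Of 42 covered cytosolic ribosomal proteins, 6 (14.3%) were members, and 39 of the 42 were below the median of all covered intervals. *Rplp1* (ENSMUSG00000007892.10; chr9:61820565-61820605, minus strand) had rates of 0.915%, 0.988% and 0.908% with S4U and 0.117% and 0.113% without it. *Rps20* (ENSMUSG00000028234.8; chr4:3831584-3834500, minus strand) had 0.843%, 1.16% and 0.793% and 0.0141% and 0.0197%, *Rps24* had 1.33% ± 0.250 and *Rps9* 1.44% ± 0.114 (SD, n = 3 for both). Ribosomal protein genes have many processed copies in the genome, and how their reads were divided among the copies limits these values.

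Other lists held few members or none. The respiratory chain and ATP synthase held 1 of 62 covered (*Atp5e*, 1.08% ± 0.233, SD, n = 3), and contractile and cytoskeletal proteins 1 of 38. That gene was *Myl6*, 2 of whose intervals were members and 2 of which, 2 bases shorter at an end, were above the threshold at 1.59% and 1.58% with the same labeled reads. No member was found among 34 covered proteasome subunits, 71 zinc finger genes named Zfp, 37 mitochondrial ribosomal proteins, 12 annexins and S100 proteins, and 37 immediate early and inducible genes, with medians of 4.05%, 3.72%, 3.76%, 3.40% and 3.64%. Of the 10 fibroblast markers *Dcn* was a member, and 9 of the 10 were below the median of all covered intervals. The list of mitochondrially encoded genes matched no name in the tables. No member was found among the 4 covered endothelial and the 2 covered mural cell markers, and no marker of the remaining cell types was covered. The lists were chosen with earlier results of these data known, so these counts describe the set.

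**Figure D3:**
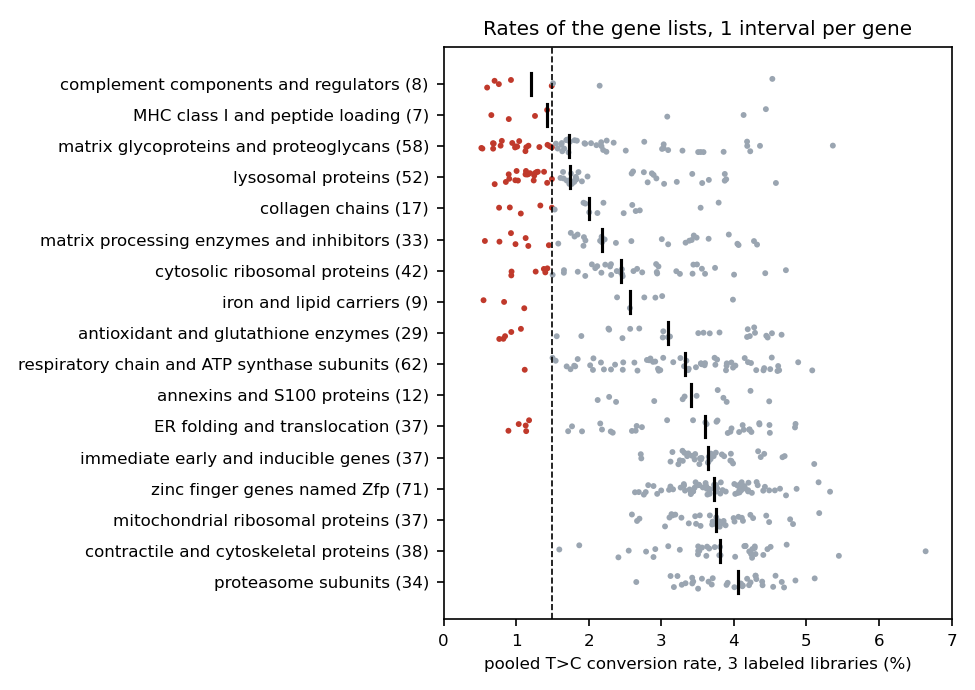
Pooled T>C conversion rate in percent (x axis) of the covered genes of each list (y axis, number of covered genes in brackets). Each gene is shown by its covered interval of highest CPM, in red where that interval is below the threshold of 1.5% (dashed). A black bar gives the list median of these intervals. *Lamp2*, *Ccdc80* and *Myl6* have a member interval but are shown by an interval above the threshold. The complement median is 1.21% and the proteasome median 4.05%.

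The lowest rates belonged mainly to genes with modest levels. *Ecrg4* (ENSMUSG00000026051.10; chr1:43781567-43781724, plus strand), for a secreted peptide precursor also called augurin, had rates of 0.181%, 0.206% and 0.184% with S4U and 0.155% and 0.0768% without it, from 15732 covered T positions in the labeled libraries. All 3 labeled libraries of *Ecrg4* were above both unlabeled libraries, by as little as 0.181% against 0.155%. *Fap* (ENSMUSG00000000392.19; chr2:62331280-62331527, minus strand), the fibroblast activation protease, had 0.405%, 0.389% and 0.386% with S4U and 0.144% and 0.202% without it. *Ptn*, for the growth factor pleiotrophin, had 0.363%, 0.774% and 0.271% with S4U, and *Spon1*, for the matrix protein spondin-1, 0.382%, 0.669% and 0.680%. *Heph*, a membrane ferroxidase, had 0.295%, 0.865% and 0.429%, *Ecm1*, for extracellular matrix protein 1, 1.14%, 0.368% and 0.253%, and *Itm2a*, a membrane protein, 0.724%, 0.417% and 0.279% with S4U. Its relative *Itm2b* (ENSMUSG00000022108.10; chr14:73599666-73600497, minus strand), among the 12 with the highest CPM, had 1.27%, 1.19% and 0.922% with S4U and 0.278% and 0.128% without it. Among the 12 genes with the lowest rate, 2 had a labeled library with no conversion. *Gpc3*, for a heparan sulfate proteoglycan of the cell surface, had 0%, 0.847% and 0.619%, and *Enpp5*, an ectonucleotidase family member, had 0.558%, 0.962% and 0% in its interval of highest level. Counts were small there, and 2 shorter *Enpp5* intervals with the same reads had the lowest pooled rate of the set, 0.165%, from 2 conversions in 1211 covered T positions.

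The name of an interval and the annotation of its place differed for some members. *LOC118568312* (ENSMUSG00000119584.1; chr17:40157394-40158063, plus strand) lies in the ribosomal RNA gene *Rn18s-rs5*, and it was the only member not annotated as protein-coding. Its rate was 0.902%, 0.282% and 0.303% with S4U and 0.565% and 0.0851% without it, and its level was 202, 3834 and 4666 CPM of counted reads with S4U and 254 and 3535 without it. The replicate 1 libraries of both groups were at the low level and high rate. The member interval of *Herpud2* (ENSMUSG00000008429.10; chr9:25012412-25020301, minus strand), 7890.0 bases long, contains the pseudogene *Gm10180*. A *Herpud2* interval of 714 bases inside it had a rate of 3.68%, while the reads outside that short interval had 0.968%, 1.06% and 0.954% in the labeled libraries, from 2411, 2838 and 1242 reads. The *Wdr89* interval, named after its values were seen, contains the pseudogene *Rplp2-ps1*. In all, 20 of the 209 intervals overlapped another gene on the same strand and 60 a gene on the other strand.

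Some genes had intervals on both sides of the threshold, a difference in labeled rates that the choice itself fixes. *Ccpg1*, an ER-phagy receptor gene, had 3 overlapping member intervals with rates from 0.940% to 0.988% and no conversion in labeled replicate 3. A separate interval upstream had 1.69%, 3.02% and 4.41% in the labeled libraries. *Lamp2*, for a membrane protein of the lysosome with alternative last exons, had 0.754%, 1.07% and 1.04% in the interval chrX:37493926-37494308 and 1.51%, 2.01% and 1.20% in a separate interval, chrX:37508379-37510588. For *Ccdc80* and *Itgbl1*, both secreted matrix-associated proteins, a longer interval contained the member interval. The reads of the added stretch had rates of 3.12%, 3.70% and 3.75% for *Ccdc80*, against 1.33%, 1.55% and 1.26% in the member interval. For *Itgbl1* they had 3.17%, 3.11% and 3.04%, against 0.900%, 1.71% and 0.891%. In both genes every labeled library was higher in the added stretch, a description of values partly used by the choice.

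Slowly labeled intervals were shorter than the other covered intervals. Their median length was 591 bases (quartiles 250 and 1033) against 1425 bases (660.0 and 2614) in the 8665 others. Of the 910 covered intervals of up to 300 bases 60 (6.59%) were slowly labeled, of 2455 intervals above 300 and up to 1000 bases 95 (3.87%), of 3773 above 1000 and up to 3000 bases 46 (1.22%), and of 1736 longer ones 8 (0.461%). The median rate of all covered intervals in these 4 length bands was 3.61%, 3.84%, 3.90% and 3.93%. With 1 interval per locus the median length was also 591 bases. The median T share was 28.5% against 30.4% in the others and the median G and C share 45.04% against 42.5%. In the last 250 bases these shares were 30% against 33.2% and 41.2% against 37.6%.

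**Figure D4:**
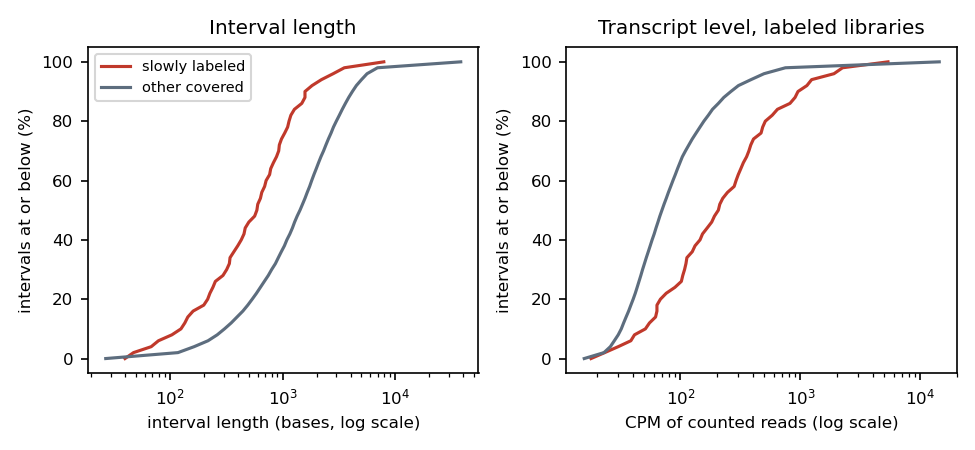
Share of intervals at or below a value in percent (y axis) by interval length in bases (left) and by mean level in the labeled libraries in CPM of counted reads (right), both on log axes, for the 209 slowly labeled and 8665 other covered intervals. The slowly labeled intervals are shorter, with a median of 591 against 1425 bases, and higher in level, with a median of 207 against 70.1.

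To describe sequence, 2 short motifs were counted on the transcript strand of the intervals. ATTTA, the core of AU-rich elements known to recruit decay factors, occurred 1.42 times per kb in the slowly labeled intervals and 1.96 times in the others. On the reverse strand, where it has no such role, it occurred 1.85 and 2.07 times per kb. In the last 250 bases of intervals at least that long, 40 of 157 slowly labeled intervals (25.5%) held ATTTA, against 44.2% of 8024 others and 43.8% of all 8181. On the reverse strand these shares were 38.2% and 58.4%, so the slowly labeled intervals had the lower share there too. With 1 interval per locus the gap on the transcript strand was smaller. There 34 of 110 slowly labeled intervals (30.9%) held ATTTA, against 43.5% of all 5091. Where the last 250 bases had a G and C share below 35%, 12 of 37 slowly labeled (32.4%) and 62.3% of 2990 other intervals held ATTTA. In the band from 35% to 40% the order was the other way round, with 12 of 23 (52.2%) against 44.1%. From 40% to 45% the shares were 8 of 35 (22.9%) against 34.0%, and from 45% up 8 of 62 (12.9%) against 22.4%, so that 3 of the 4 bands had the lower share in the slowly labeled intervals. The bands count overlapping intervals of a locus separately. TGTANATA, the motif bound by Pumilio proteins, in which N is any base, was found in the last 250 bases of 2 of 157 slowly labeled intervals (1.27%), 11.6% of the others and 11.4% of all 8181. Its reverse strand shares were 0.637% and 4.64%. Both slowly labeled intervals with the motif are shown because they are the exceptions, with the motif in capitals in *Col14a1* and *Fndc1*.
Col14a1, chr15:55383044-55383073, plus strand: agggtttctttTGTAAATAaaaaacatccg
Fndc1, chr17:7957460-7957489, minus strand: atgtgtgtgtgTGTATATAtatgcatatac
The *Col14a1* site, in a member interval other than the one described above, begins 31 bases before the interval end, and the *Fndc1* site, in a stretch of TG repeats, 78 bases before it. ATTTA and TGTANATA can share no more than 1 base, and a match is a run of letters that says nothing of binding.

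Transcript levels of the slowly labeled intervals were higher than those of the other covered intervals. Because each read marks 1 transcript end, levels are not divided by length. The median deposited CPM was 17.8 against 5.93, and in CPM of counted reads it was 207 against 70.1. The deposited CPM divides by a number larger than the counted reads, and its median over the members was 23.1, 17.6 and 6.29 in labeled replicates 1, 2 and 3. In CPM of counted reads the medians were 175, 208 and 182 with S4U and 195 and 221 without it, so the groups overlapped. Of the covered intervals above the upper quartile of CPM, 5.63% were slowly labeled, against 0.946% of those up to the lower quartile. Among 66 covered genes of at least 100 deposited CPM, 13 were members. Counting each locus once, members held 6.10%, 7.56% and 7.71% of the counted reads in the labeled and 6.35% and 7.37% in the unlabeled libraries.

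The rule used reads of the labeled libraries through its minimum of covered T positions, and it set no minimum in the unlabeled libraries. Read counts were compared between labeled and unlabeled libraries, and the fold changes of the members are not independent of this filter. By the quasi-likelihood test of edgeR, Benjamini-Hochberg adjusted over 16563 intervals, 0 intervals were called higher and 0 lower (0% of those tested), and 0 of the 209 slowly labeled intervals were called. This fit did not use the replicate numbers. A fit with the replicate number as a block, which is given with the alternatives, called 1895 intervals. Of the 209 members it called 19 (9.09%, against 11.4% of all tested). At an unadjusted p below 0.05, 1 member was higher and 3 were lower, against 469 (2.83%) and 488 (2.95%) of all tested. DESeq2 called 24 of 12038 intervals with an adjusted p (19 higher, 0.158%, and 5 lower, 0.0415%), none of them a member. The median log2 fold change of the members was 0.10, that of all intervals 0.03, and 208 of the 209 were within 1 on the log2 scale. *Wdr89* was the exception, at 1.18. The member with the lowest adjusted p was *Abi3bp*, singled out after its values were seen, a gene for a matrix protein, at -0.96 with a standard error of 0.28 (adjusted p = 0.712). *Selenop* had 825, 382 and 427 CPM of counted reads with S4U and 1421 and 832 without it, a log2 fold change of -0.95 with a standard error of 0.38 (adjusted p = 0.818). Its labeled and unlabeled levels met at 825 and 832 without overlapping. *Bgn*, the highest member, had a log2 fold change of 0.44 with a standard error of 0.24 (adjusted p = 0.940).

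Without S4U, the background T>C rate of an interval was a median of 0.0374% in the slowly labeled and 0.0533% in the other intervals. The order differed between the libraries, with 0.0387% against 0.0621% in unlabeled replicate 1 and 0.0284% against 0.0229% in unlabeled replicate 2. As a share of the labeled rate, whose low values chose the members, the background was a median of 3.64% in the slowly labeled intervals and 1.43% over all covered intervals. The 3 highest backgrounds were those of *Gpnmb*, *Serpinf1* and *Arsb*. *Gpnmb* (ENSMUSG00000029816.12; chr6:49033249-49035116, plus strand), for a glycoprotein of endosomes and lysosomes, had 0.964% and 0.573% without S4U and 1.30%, 1.23% and 1.10% with it. *Serpinf1* (ENSMUSG00000000753.17; chr11:75300855-75300959, minus strand) had 0.702% and 0.384% and 1.21%, 1.16% and 1.08%. *Arsb* (ENSMUSG00000042082.9; chr13:94077240-94079524, plus strand), for the lysosomal arylsulfatase B, had 0.773% and 0.122% and 2.15%, 1.11% and 0.526%. In *Gpnmb* and *Serpinf1* unlabeled replicate 1 was the higher of the 2 and remained below every labeled library, while *Arsb* overlapped between the groups. No conversion was seen without S4U in 30 of the 209 intervals (14.4%), against 19.6% of all covered intervals. In 197 of the 209 every labeled library was above both unlabeled libraries (94.3%), against 99.8% of all covered intervals, a contrast that the choice by low labeled rates fixes in part. The 12 others were intervals of *Arsb*, *Ccpg1*, *Enpp5*, *Fbln1*, *Gpc3*, *LOC118568312* and *Tcn2*, and in 10 of these 12 a labeled library had no conversion.

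**Figure D5:**
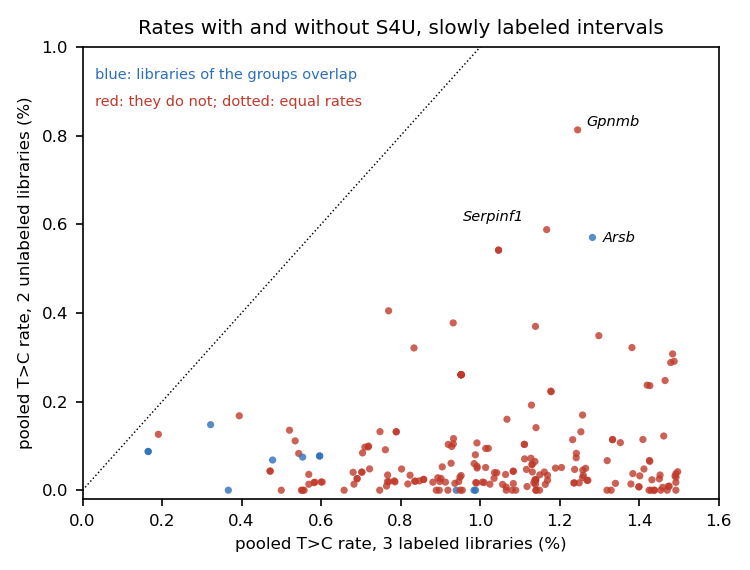
Pooled T>C conversion rate in percent without S4U (y axis) against that with S4U (x axis) for the 209 slowly labeled intervals, with the 12 in which the groups' libraries overlap in blue and equal rates dotted. All points lie below the dotted line, and *Gpnmb*, *Serpinf1* and *Arsb* have the highest background.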

How the data were processed

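SLAMseq of cultured CF gave 3 libraries labeled with S4U and 2 unlabeled ones, grouped by the submitters' labels. The authors extracted unique molecular identifiers and removed duplicates with umi-tools, mapped the 3′ end reads to mm39 with SLAM-DUNK 0.4.3, and deposited 1 table of 3′ UTR intervals per library. The deposited counts are reads, reads with a T>C conversion, covered T positions, conversions and T content, without normalization. The rate that the authors deposited is a fraction of covered T positions read as C, and rates are given here in percent. The deposited CPM divides the reads by a number larger than the counted reads, so levels are also given as CPM of counted reads, scaled to the reads on the highest interval of every gene.

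Each table has 97442 rows, of which repeated ones were used once. T content matched GRCm39 for 40380 of 40380 intervals on its chromosomes. Coordinates count from 1, and genes, exons and sequences were read from GRCm39 and its GENCODE annotation. Whether counting used strand is not given in the sources used here.

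The members, gene lists, motifs and rules were chosen with earlier results of these data known. Named genes were the 12 with the lowest pooled rate, the 12 with the highest CPM, the intervals next to the threshold, up to 4 members of highest CPM in each of 27 lists, up to 5 genes with intervals on both sides of the threshold, the 3 highest backgrounds, and up to 5 genes whose reads changed most past the test, of which there were none. Where a gene had several member intervals, that of highest CPM was used. Some member genes are named without values, and 2 members are not reported here.

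Reads were tested with edgeR by quasi-likelihood (TMM, filterByExpr, Benjamini-Hochberg adjustment over all intervals tested, threshold 0.05). On simulated data of this comparison with 16563 intervals, it recovered 121 of 200 intervals given a log2 fold change of 2, with 7 false calls. The simulated counts were drawn independently for each interval and library. They held no deviation shared by libraries across the groups, so this result need not apply to the deposited libraries. Rates, lengths, levels and motifs were described without a test. Limits for 0 conversions rest on 3 conversions and cover counting error only. Alternatives were other thresholds of rate and coverage, 1 interval per gene, subtraction of the unlabeled rate, other scalings and filters, DESeq2, the replicate number as a block and each library left out in turn. 1 interval per locus was added after the data were seen. Python 3.11.15, scipy 1.17.1, pandas 2.3.3, R 4.3.3, edgeR 4.0.16 and DESeq2 1.42.0 were used.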

Additional observations from a re-analysis of the deposited data

How the results depend on the processing

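Of the 209 slowly labeled intervals, 96 were below 1% and 372 intervals were below 2%. A minimum of 1000 covered T positions left 130 intervals with a median CPM of 27.9, and a minimum of 100 gave a median CPM of 7.90. In CPM of counted reads the median level was 207. Choosing after subtraction of the unlabeled rate gave an unlabeled rate of 0.160% instead of 0.0746%, because it admits intervals of high background. In the last 250 bases ATTTA occurred 1.22 times per kb, against 2.57 times in the other covered intervals. With 1 interval per locus it occurred 1.49 times per kb there, against 2.55 times over all covered loci. With each labeled library left out and coverage required in the other 2 alone, the number ran from 208 (without replicate 1) to 251 (without replicate 3) and between 188 and 201 of the 209 intervals were chosen again. The median length ran from 547 to 599.5 bases, the median CPM from 11.1 to 14.0 and the unlabeled rate from 0.0768% to 0.0778%. The median length stayed between 488 and 609.5 bases under every setting tried. With 1 interval per locus, 147 were left.

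Read counts gave 11 called intervals without a filter on low counts (10 higher and 1 lower) and 24 with DESeq2, none of them members. With each library left out the count was also 0, which says nothing of stability, and without 1 unlabeled library the remaining one is assumed to vary like the labeled ones. With the replicate number as a block, 1895 intervals were called (947 higher, 948 lower), of which 19 were members (11 higher, 8 lower), 9.09% of the members against 11.4% of all tested. The deviations of replicates 1 correlated at 0.77 and those of replicates 2 at 0.62 across the 2 groups, and those of labeled replicate 3 with unlabeled replicate 2 at 0.46. Deviations were taken from group means, which makes those of the 2 unlabeled libraries exact opposites and ties the labeled ones together. These correlations are therefore not independent of each other. Unlabeled cells were incubated beside labeled ones, but neither the labels nor the methods say that a number marks a shared preparation, so whether the numbers pair the libraries is not known. Depth limits the choice near the threshold, since for 52 of the 209 intervals the counting interval of the pooled rate reaches it.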
